A study of Mus musculus with 4 samples.

Results

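The cells described here were germ cells of the mouse testis with high levels of Ces5a, Pax6, Cytl1, Sostdc1, Mdm1 and Gm6588. They were chosen by the deposited values of these 6 genes: in each of the A0 and A10 libraries, the 600 cells with the highest mean over the 6 genes were taken. This gave 600 of 8941 cells in A0 (6.71%) and 600 of 9682 cells in A10 (6.20%), or 1200 of the 27060 cells of the series. A0 was the control group, which received water alone, and A10 received alginate oligosaccharides (AOS, degradation products of a brown seaweed polysaccharide) at 10 mg/kg body weight by daily oral gavage. The males were ICR mice, an outbred stock, first dosed at 3 weeks of age, and neither group received busulfan, the alkylating drug given to the other groups of the series. How long dosing lasted is stated in more than 1 way in the text of the study. Testis cells of 6 mice were pooled before capture in each group, and each group was a single library, so no test between groups was possible and animals cannot be told apart. Every interval below is a 95% interval for counting error only. In the text, "members" are the 600 chosen cells of a library and "other cells" are all its remaining cells.

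The germ cells of the testis are named by stage: spermatogonia (SPGs) are the dividing stem and progenitor cells, spermatocytes (SPCs) are the cells in meiosis, and spermatids (STs) are its haploid products, at first round in shape. Round spermatids build the acrosome, a secretory cap that helps the sperm to enter the egg, and start the axoneme, the microtubule core of the tail. Later, elongating spermatids replace histones by transition proteins and then by protamines. The X and Y chromosomes are silenced during the SPC stage and many of their genes, often in families of many copies, are used again in round spermatids. The 6 genes are not known as a functional group. Ces5a encodes a secreted carboxylesterase best known from kidney and epididymis. Pax6 is a transcription factor of eye and pancreas development. Cytl1 is a small secreted protein of cartilage, and Sostdc1 is a secreted antagonist of BMP and WNT signals. Mdm1 binds microtubules of the centriole.

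The libraries held 150812974 unique molecular identifiers (UMIs, 1 per captured transcript) in A0 and 143714595 in A10, with a median per cell of 12685 and 10948. Members had a median of 12316 UMIs in A0, against 12718 in the other cells, and 10206 against 10994 in A10. After each cell was thinned to 5000 UMIs, members had a median of 2237 detected genes in A0 and 2212 in A10, against 2143 and 2126 in the other cells. The Scrublet doublet caller marked 3.33% of members in A0 (20 cells, 2.05 to 5.10%) and 4.50% in A10 (27 cells, 2.99 to 6.48%), and 8.40% and 8.93% of the other cells. In all, 135 cell barcodes occurred in both libraries, of which 12 were members in A0, 3 were members in A10 and 0 were members in both. Leaving out the cells with such barcodes changed the number of genes past 2-fold in members from 1489 to 1493 in A0, from 1441 to 1436 in A10, and from 8 to 9 for A10 over A0.

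The choice of 600 cells did not fall at a gap in the values. In A0 the last member had a mean over the 6 genes of 0.46427 on the natural log scale of the deposited values, and the next cell had 0.46412. In A10 the corresponding values were 0.45103 and 0.45098. The highest cell reached 0.9938 in A0 and 0.9493 in A10, and 3844 cells of A0 (43.0%) and 4577 cells of A10 (47.3%) had 0 UMIs of all 6 genes. Summed over cells, the last 50 members and the first 50 cells outside had 34.2 and 22.1 counts scaled to 1000000 per set of cells (CPM) of Ces5a in A0, and 24.9 and 35.3 CPM in A10. The order of Ces5a was thus not the same in the 2 libraries, nor was that of Pax6 and Cytl1. Gm6588 and Sostdc1 were higher in the last members in both, with Gm6588 at 164 and 139 CPM in A0 and 134 and 123 CPM in A10. Mdm1 was lower there in both (184 and 207 CPM, 190 and 216 CPM). These sums carry no interval.

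Levels of the 6 genes in members and other cells describe the choice and test nothing. Ces5a stood at 36.7 CPM (33.0 to 40.7) in A0 members and 5.13 CPM in other cells, and at 40.1 CPM (36.0 to 44.5) and 4.70 CPM in A10. Pax6 stood at 29.5 CPM (26.2 to 33.1) against 3.56 CPM in A0, and at 35.8 CPM (32.0 to 40.0) against 3.75 CPM in A10. Cytl1 was at 80.2 and 85.8 CPM in the members of A0 and A10, and Sostdc1 at 30.4 and 29.9 CPM. Each gene was seen in few UMIs per cell. A UMI of Pax6 was found in 37.3% of A0 members and 40.0% of A10 members, and the highest cell held 5 UMIs in each. Mdm1 was found in 98.7% and 96.3% of members, and Gm6588 in 95.7% and 89.5%. In A0, 27 members held UMIs of 2 of the 6 genes, 197 of 3, 238 of 4, 106 of 5 and 32 of all 6. In A10 the numbers were 27, 228, 206, 109 and 30. No member held fewer than 2, whereas 46.1% of the other cells of A0 and 50.4% of those of A10 held none.

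Each gene was also read in cells picked by the other 5, so that its own values took no part in the choice of cells. The 6 genes had been chosen together with earlier results of these data known, so these folds describe the set and test nothing. Every gene was then 3.47 to 5.07 times higher in the picked 600 cells than in the rest of the library. Ces5a was at 24.7 CPM (21.7 to 28.1) in the picked cells of A0 and 5.96 CPM (5.57 to 6.38) in the rest, and at 26.4 CPM (23.1 to 30.1) and 5.64 CPM (5.25 to 6.06) in A10. Pax6 was at 19.3 CPM (16.7 to 22.3) against 4.28 CPM (3.94 to 4.63) in A0, and at 22.2 CPM (19.2 to 25.5) against 4.67 CPM (4.32 to 5.05) in A10. Gm6588 had the highest fold in both libraries (5.01 and 5.07) and Mdm1 the lowest (3.47 and 3.55).

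Cells of both libraries were then clustered without the 6 genes, which gave 23 clusters. The clusters that together held at least 80% of members were taken, so a high share follows from this choice. They were clusters 16, 15, 14 and 2. These held 523 of the 600 members in A0 (87.2%, 84.2 to 89.7%) and 512 in A10 (85.3%, 82.2 to 88.1%). Of the other cells they held 18.2% in each library. Clusters 15 and 16 alone held 66.8% of members in A0 and 62.5% in A10. Of the remaining members, 43 in A0 and 59 in A10 lay in cluster 12, in which Scrublet marked 39.0% and 44.2% of cells. At the other end, 10 clusters held no member in either library. Members were chosen by the 6 genes, so low levels in such clusters and high levels in cluster 16 follow in part from that choice. In those clusters a UMI of Pax6 was found in 0.684% of 4094 A0 cells and 0.694% of 4470 A10 cells at a median of 11658 and 10169 UMIs, and a UMI of Ces5a in 1.66% and 0.984%. In cluster 16 the shares were 27.2% and 26.9% for Pax6 and 33.8% and 28.6% for Ces5a, at a median of 11941 and 9797 UMIs. Ces5a differed from Pax6 in some clusters with few or no members. In cluster 10, which held no member, 6.96% of A0 cells and 3.32% of A10 cells had a UMI of Ces5a. For Pax6 the shares were 0.870% and 1.04%. Cluster 17 held 0 members in A0 and 1 in A10. Its shares were 15.5% and 14.6% for Ces5a and 2.55% and 2.66% for Pax6. In cluster 3, with 0 and 2 members, they were 14.6% and 11.7% for Ces5a and 7.40% and 9.46% for Pax6.

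**Figure D1:**
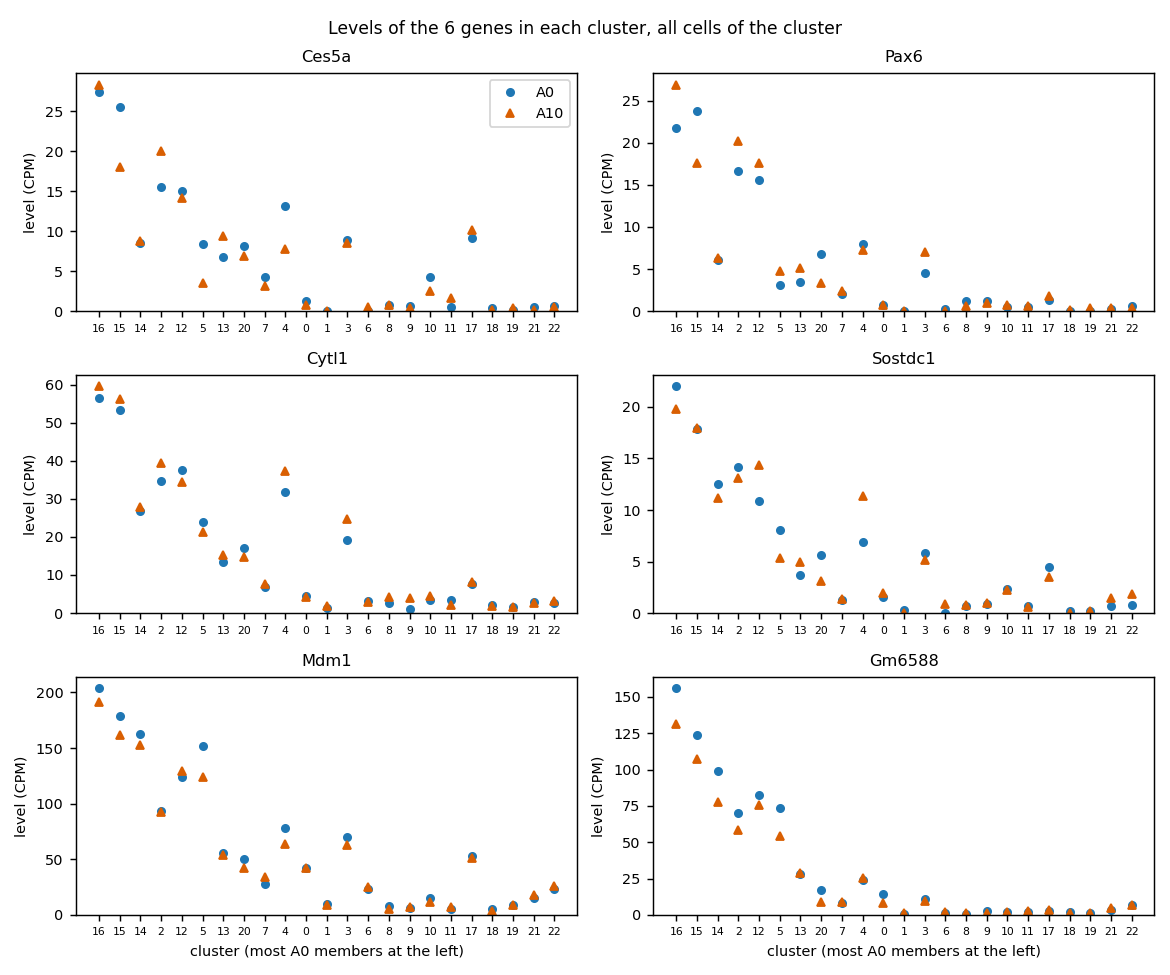
Level of each of the 6 genes (CPM, y axis) in all cells of each of the 23 clusters (x axis, ordered by the number of A0 members), with circles for A0 and triangles for A10. Pax6 reached 21.8 and 23.8 CPM in clusters 16 and 15 of A0, and stood at 0 CPM in cluster 19 of A0.

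Inside the clusters that held most members the folds were smaller. When picked by the other 5 genes and compared only with the remaining cells of clusters 2, 14, 15 and 16, cells had Ces5a at 25.3 CPM against 16.5 CPM in A0 (1.53-fold, 1.29 to 1.82) and at 27.1 against 16.9 CPM in A10 (1.60-fold, 1.34 to 1.91). Pax6 differed by 1.29-fold (1.06 to 1.55) in A0 and 1.41-fold (1.17 to 1.70) in A10. Mdm1 differed by 1.28-fold (1.20 to 1.36) and 1.27-fold (1.19 to 1.36). These folds pool 4 clusters with unlike levels. Over all cells of A0, Pax6 was at 6.07 CPM in cluster 14 and 23.8 CPM in cluster 15. Members made up 12.4% and 36.6% of the cells of these 2 clusters. How much of each fold came from the mix of clusters was not tested. Median UMIs per cell were 12316 in the cells picked without Pax6 and 11553 in the remaining cells of A0. Cluster 16 alone was also examined after thinning, where a variance equal to the mean is what counting error gives. There the ratio of variance to mean over cells lay between 0.907 and 1.23 in A0 and between 0.993 and 1.05 in A10 for the 6 genes. Pax6 had a ratio of 1.03 over 497 cells in A0 and 0.993 over 769 cells in A10. Cytl1 in A0 had the highest ratio and Ces5a in A0 the lowest. Mean UMIs per cell after thinning lay between 0.0986 (Pax6 in A0) and 0.984 (Mdm1 in A0). At means this low, differences among cells move the ratio little. A ratio near that of counting error therefore cannot show that the cells were alike.

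**Figure D2:**
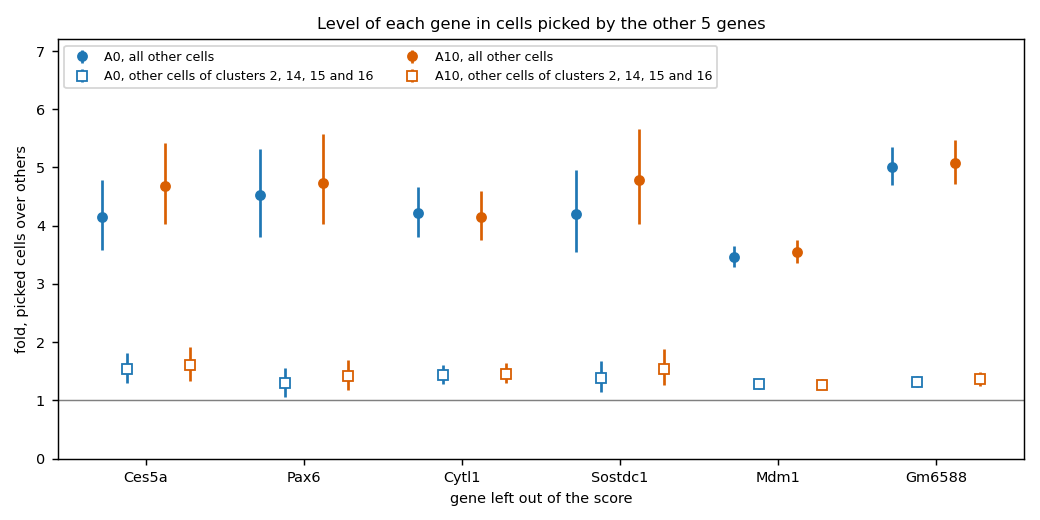
Fold of each gene (y axis) in cells picked by the other 5 genes, over all remaining cells of the library (filled circles) and over remaining cells of clusters 2, 14, 15 and 16 (open squares); bars are intervals for counting error. Filled circles lie between 3.47 and 5.07 and open squares between 1.27 and 1.60, all above the grey line at 1.

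In the expression of other genes, round spermatid markers stood higher in members than in other cells, most elongating spermatid markers stood lower, and SPC markers lay on both sides. UMIs were summed over members and over other cells, scaled to CPM, and compared as a log2 ratio with 1 CPM added, among genes with at least 10 CPM in either set. In A0, 488 of 7001 genes (6.97%) were at least 2-fold higher in members and 1001 (14.3%) at least 2-fold lower. In A10, 516 of 6968 genes (7.41%) were higher and 925 (13.3%) lower. Of these, 421 genes were higher in both libraries (86.3% of the A0 genes and 81.6% of the A10 genes) and 861 were lower in both (86.0% and 93.1%). The median log2 ratio over all genes was 0.057 in A0 and 0.042 in A10.

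A closer set was given by cells of the same clusters. All 600 members of each library, of which 77 in A0 and 88 in A10 lay in other clusters, were first compared with these cells. Against the other cells of the same 4 clusters, 0 of 6375 genes in A0 and 0 of 6376 genes in A10 were 2-fold higher in members, and 15 and 2 genes were 2-fold lower. The lowest of the 15 was the haemoglobin gene Hba-a1 (log2 ratio -4.09 in A0, and 0.586 in A10). The 2 genes of A10 were Spata31d1d and Gpsm2. With only the 523 and 512 members inside the 4 clusters, set against 1519 and 1653 other cells there, 0 of 6373 genes in A0 and 0 of 6359 in A10 were 2-fold higher, and 18 (0.282%) and 5 (0.0786%) were 2-fold lower. The highest log2 ratio was 0.70 in A0 and 0.68 in A10. Hba-a1 was at 1.06 CPM in these members and 31.6 CPM in the other cells of A0. The 5 genes of A10 were Speer4d, Spata31d1d, Cct8l1, Gpsm2 and Gm13547, of which Spata31d1d and Cct8l1 were also among the 18 of A0. Genes of this paragraph other than Hba-a1 were named after their values were seen.

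All 12 round spermatid markers had a log2 ratio above 0 in both libraries, with a median of 0.71 in A0 and 0.79 in A10. Only Tex36 passed 2-fold, beside 6.97% and 7.41% of all genes 2-fold higher (A0 and A10). Against the other cells of the same 4 clusters the medians were -0.049 and -0.006, and with only the members inside those clusters -0.020 and 0.013. Tex36 was at 737 CPM in members and 366 CPM in other cells of A0 and at 703 and 327 CPM in A10. The acrosomal membrane protein Spaca1 was at 650 and 372 CPM in A0 and at 580 and 323 CPM in A10. Dkkl1, an acrosomal protein, was at 2296 and 2162 CPM in A0 and at 2210 and 2075 CPM in A10, the smallest ratio of the list (0.09 in both). Clusters with few members lay on both sides of members. Cluster 3 held 0 members in A0 and 2 in A10. Over all its cells Tex36 was at 1075 and 1044 CPM and Spaca1 at 1017 and 1008 CPM. In cluster 0, with 0 members in each, Tex36 was at 91.2 and 85.5 CPM and Spaca1 at 167 and 145 CPM. High levels of these 2 markers were therefore not particular to members.

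Elongating spermatid markers went the other way, with a median of -1.17 in A0 and -1.07 in A10 and 7 of 13 genes 2-fold lower in both, beside 14.3% and 13.3% of all genes. Against the other cells of the same 4 clusters the medians were 0.090 and 0.097, and with only the members inside those clusters -0.066 and -0.071. Protamine 1 (Prm1) was at 2605 CPM in members and 12986 CPM in other cells of A0, and at 3875 and 17479 CPM in A10. Transition protein 2 (Tnp2) was at 1645 and 7916 CPM in A0 and at 1962 and 8395 CPM in A10. The kinase gene Tssk6 was at 142 and 510 CPM in A0 and at 152 and 488 CPM in A10, and Spem1 at 84.8 and 287 CPM and at 90.7 and 272 CPM. For comparison, over all cells of a cluster Prm1 stood at 1788 and 2673 CPM (A0 and A10) in cluster 0 and at 967 and 1464 CPM in cluster 19, which was led by the SPC gene Pou5f2, while it reached 60586 and 82449 CPM in cluster 9, led by Tnp2. Its level in cluster 16 was 2092 and 3179 CPM. The part of free RNA in these levels was not tested.

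SPC markers were mixed. Ratios were above 0 for 4 of 9 early prophase genes, 4 of 9 pachytene genes, and 8 of 12 late SPC genes in A0 and 8 of 13 in A10. The pachytene list had a median of -1.0 in A0 and -1.16 in A10, with 5 of 9 genes 2-fold lower in both and 0 higher, beside 14.3% and 13.3% of all genes lower. Mtl5 was at 90.0 against 181 CPM in A0 and 80.8 against 182 CPM in A10. Pou5f2, a transcription factor of SPCs, was at 4.88 CPM in members and 43.5 CPM in other cells of A0 and at 5.5 and 51.3 CPM in A10. Piwil1, a piRNA-binding protein of pachytene cells, was at 26.7 and 96.7 CPM in A0 and at 27.1 and 108 CPM in A10. The 4 pachytene genes above 0 were the heat shock protein Hspa2 (984 against 837 CPM in A0 and 910 against 835 CPM in A10), Tbpl1 (1171 against 859 CPM and 1197 against 901 CPM), the lactate dehydrogenase subunit Ldhc (8108 against 7775 CPM and 8002 against 7761 CPM) and the chaperone Clgn (753 against 612 CPM and 723 against 626 CPM). Against the other cells of the same 4 clusters the pachytene medians were 0.022 in A0 and -0.037 in A10, the early prophase medians 0.061 and -0.003, and the late SPC medians 0.005 and -0.052. Against all other cells the early prophase list had a median of -0.43 in A0 and -0.64 in A10, with Meioc 2-fold lower in both and Sycp3 2-fold lower in A10 alone. However, the meiotic cohesin Rec8 in it was higher in members, at 71.3 against 27.6 CPM in A0 and 61.2 against 22.3 CPM in A10. This level was not particular to members. Over all cells of cluster 3, which held 0 members in A0 and 2 in A10, Rec8 was at 67.1 and 56.2 CPM. In the list of late SPC and meiotic division genes (median 0.39 in A0 and 0.25 in A10), the spindle checkpoint kinase Bub1 was higher (152 against 52.8 CPM and 143 against 53.8 CPM) and Cdk1 was lower (29.9 against 69.1 CPM and 29.9 against 72.1 CPM). Of 11 spermatogonial markers only Id4 reached 10 CPM in either set, and it was lower in members (log2 ratio -1.27 and -1.38).

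Markers of somatic cells were low in members. The summed level of 7 Leydig cell genes was 4.88 CPM in A0 and 4.60 CPM in A10, that of 6 endothelial genes 1.63 and 1.12 CPM, and that of 7 macrophage genes 4.37 and 3.93 CPM. Of these, C1qb was 2-fold lower in both (1.63 against 10.5 CPM in A0 and 2.58 against 10.2 CPM in A10). Peritubular myoid genes (5) summed to 1.83 and 1.35 CPM. Sertoli cell genes (9) summed to 22.1 and 30.3 CPM in members, against 41.3 and 41.6 CPM in other cells. Red blood cell genes (5) summed to 1.93 and 3.03 CPM, against 18.5 and 9.40 CPM. This list did not hold the globin genes Hbb-b1 and Hbb-b2. With Hba-a1 they led cluster 11, which had Prm1 at 61667 and 81572 CPM (A0 and A10). Hbb-b2 was also among the leading genes of cluster 14. Since Ces5a is abundant in the epididymis, 7 epididymal genes were also read, and they summed to 8.23 CPM in A0 members and 5.05 CPM in A10 members, against 6.65 and 6.51 CPM in other cells. The epididymal genes Lcn5, Lcn9, Adam7, Cst11 and Rnase9 had 0 UMIs in the members of both libraries, and Rnase10 gave most of the sum (7.42 and 4.94 CPM).

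**Figure D3:**
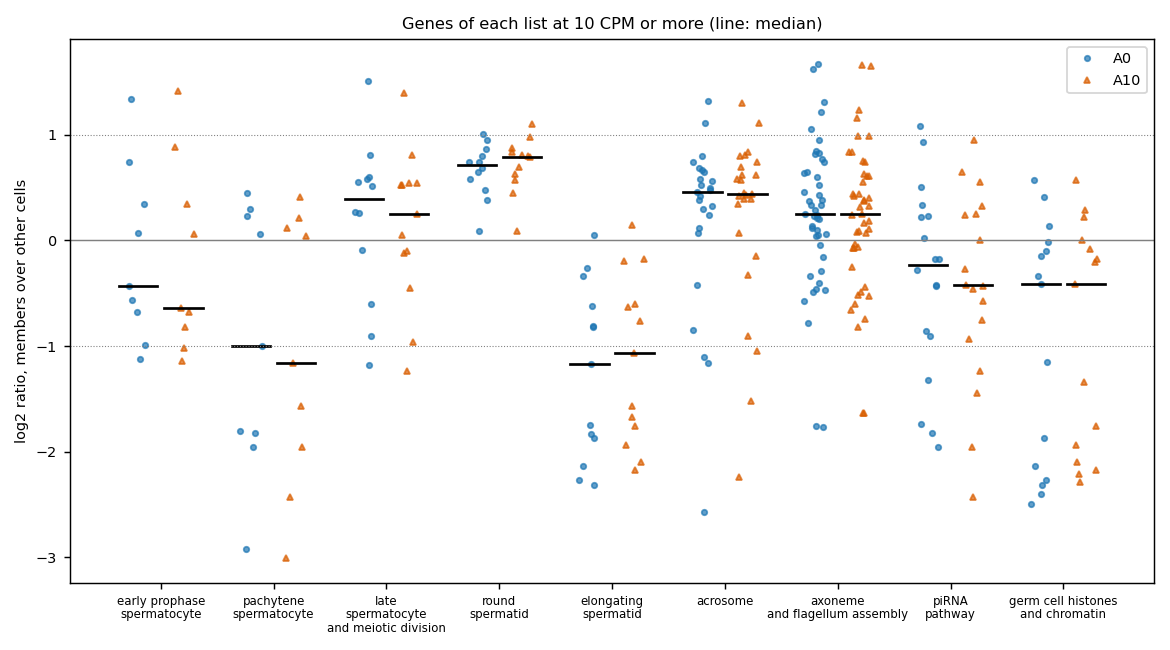
Log2 ratio of members over other cells (y axis) for every gene of 9 lists with at least 10 CPM in either set, with circles for A0, triangles for A10, black lines for medians and dotted lines at 2-fold. All 12 round spermatid markers lie above 0, and 12 of 13 elongating spermatid markers lie below 0, in both libraries.

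Most genes of the acrosome list had ratios above 0. Of 25 acrosome genes, 20 were above 0 in A0 and 19 in A10 (medians 0.46 and 0.44), and 2 (beside 6.97% and 7.41% of all genes) were 2-fold higher, namely the sperm hyaluronidase Spam1 (183 against 72.8 CPM in A0 and 187 against 75.3 CPM in A10) and Zp3r (215 against 99.0 CPM and 203 against 93.1 CPM). The genes Tex101, Spaca9 and Gopc were 2-fold lower in both, beside 14.3% and 13.3% of all genes. Of 45 axoneme and flagellum genes, 5 were 2-fold higher and 2 lower in A0, and 4 higher and 2 lower in A10, beside 6.97% and 7.41% of all genes higher and 14.3% and 13.3% lower. Foxj1, the master regulator of motile cilia, was at 154 against 47.9 CPM in A0 and 131 against 41.0 CPM in A10. Spag6 of the axonemal central apparatus was at 772 against 251 CPM and 685 against 218 CPM. Cfap58 and the dynein heavy chain Dnah3 were also 2-fold higher in both, Spef2 in A0 alone, and Ift172 and Tekt5 were lower in both. The median over the list was 0.25 in each library. Over all cells of cluster 4, which held 1 member in A0 and 2 in A10, Spag6 was at 743 and 605 CPM. Foxj1 was at 69.8 and 61.8 CPM there. A high level of Spag6 was therefore not particular to members.

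Genes of the families and pathways of the 6 genes were read next. Of 14 further carboxylesterase genes in the table, 0 reached 10 CPM in either set, and 9 had 0 UMIs in members of each library. The next most frequent after Ces5a was Ces1a, at 5.18 CPM in A0 members and 5.39 CPM in A10 members. Among 19 Pax genes and partner factors, 4 reached 10 CPM. Pax9 was at 18.7 against 14.8 CPM in A0 and at 15.5 against 15.6 CPM in A10. Of the 4, only Eya4 was 2-fold lower in both, beside 14.3% and 13.3% of all genes lower. Of the BMP and WNT genes, 10 in A0 and 9 in A10 reached 10 CPM, with 4 higher and 4 lower in each, beside 6.97% and 7.41% of all genes higher and 14.3% and 13.3% lower. The inhibitory Smad6 was at 82.9 against 34.1 CPM in A0 and at 73.9 against 30.5 CPM in A10. The WNT co-receptor Lrp5 was at 21.2 against 5.97 CPM and 19 against 4.98 CPM, and the receptor Fzd3 and the common mediator Smad4 were also higher. The ligands Bmp7 and Wnt3, the mediator Smad1 and the transcription factor Lef1 were lower. Among 20 centriole and centrosome genes, the group closest to Mdm1, 0 were 2-fold higher and Ccp110, Pcnt, Tubg1 and Cby1 were 2-fold lower in both (medians 0.04 and 0.06), to be read against the same shares of all genes.

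Counts of the remaining lists stand beside 14.3% (A0) and 13.3% (A10) of all genes 2-fold lower and 6.97% and 7.41% higher, and those of small lists near these shares show nothing about the list. The piRNA pathway had 4 of 18 genes 2-fold lower in both libraries (Piwil1, Piwil2, Tdrd5 and Mov10l1), and Tdrd7 higher in A0 alone. Germ cell histones and chromatin genes had 7 of 15 lower and 0 higher. Of the 7, Prm1, Prm2, Tnp1 and Tnp2 are also in the elongating list, and the others were Kat5 and the histones H1fnt (154 against 821 CPM in A0) and H2afb1 (75.9 against 435 CPM). Cohesin genes Rec8 and Smc3 were the 2 higher genes of 12 in the synaptonemal complex list. Of the glycolysis list, 3 of 18 genes were lower in both (Pkm, Gpi1 and Slc2a3) and 0 higher, and of 21 chaperones 3 were lower (Hspa1l, Hsph1 and Calr3) and 0 higher, both near the share of all genes lower. Only Rps3 of 37 ribosomal protein genes, Pabpc6 of 19 RNA storage and translation genes and Rnf133 of 15 ubiquitin and proteasome genes were lower in both. Of 19 transcription regulators of meiosis and spermatids, only Mybl1 was lower in both, and 0 were higher in both (medians 0.15 and 0.29).

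Outside the lists, the 10 genes with the largest log2 ratio in A0 were led by the SSX family, X-linked nuclear proteins also found in tumours. Ssxb2 was at 131 CPM (123 to 138) in members and 23.9 CPM (23.1 to 24.7) in other cells of A0, and at 127 CPM (119 to 134) and 26.3 CPM (25.4 to 27.1) in A10. Ssxb1 was at 98.1 CPM against 21.2 CPM in A0 and at 98 CPM against 22.2 CPM in A10. These levels were not particular to members. Cluster 5 held 21 members among 210 cells in A0 and 8 among 154 in A10. Over all its cells Ssxb2 was at 107 and 131 CPM (A0 and A10) and Ssxb1 at 101 and 117 CPM. Ssxb8, Ssxb6 and Ssx9 were also among the 10, at 12.8 to 18.6 CPM in members and 2.62 to 3.83 CPM in other cells over both libraries. Ssxb3 was 2-fold higher too (log2 ratio 1.48 and 1.41), whereas Ssxb5, Ssxb9, Ssxb10 and Ssxa1 stayed under 10 CPM. With 10 CPM added in place of 1, the log2 ratio of Ssxb8 was 0.959 and 0.980 (A0 and A10), that of Ssxb6 0.958 and 1.050, and that of Ssx9 0.920 and 0.836. Against the other cells of the same 4 clusters, log2 ratios of Ssxb2, Ssxb1, Ssxb8, Ssxb6 and Ssx9 lay between 0.32 (Ssxb8 in A10) and 0.65 (Ssxb8 in A0). Copies of this family can share reads. Of all 98-base windows of their annotated transcripts, 11.1% of Ssxb2, 6.43% of Ssxb1, 26.2% of Ssxb8 and 0% of Ssx9 also occurred in another copy. Reads of all copies but Ssx9 and Ssxa1 could therefore be ambiguous. The windows cover whole transcripts and are shorter than the reads the study reports, so the effect on the counts was not measured.

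The remaining genes of the 10 were Gm21119, the adipokine C1qtnf3, the transcription factor Dmrta2, Abtb2 and the DNA polymerase subunit Pole2. Dmrta2 was at 31.0 CPM (27.6 to 34.7) in members against 7.11 CPM (6.68 to 7.57) in A0 and at 26.6 CPM (23.3 to 30.2) against 5.55 CPM (5.16 to 5.96) in A10. Pole2 was at 67.3 CPM against 16.6 CPM and at 73.4 CPM against 20.9 CPM. In A10 members the 10 genes were 3.51 to 4.95 times higher than in all other cells. With 10 CPM added, Ssxb8, Ssx9 and C1qtnf3 (log2 ratio 0.987) were under 2-fold there. Against the other cells of the same 4 clusters, log2 ratios of the 10 genes lay between 0.245 (Dmrta2) and 0.649 (Ssxb8) in A0 and between 0.190 (Pole2) and 0.470 (Ssxb2) in A10. The 10 genes with the lowest ratio were Elfn2, Phf2, Anp32b, Mllt10, Alyref, Sap30, Hemgn, Ube2t, Rora and Hba-a1. Mllt10, a chromatin protein, was at 23.6 CPM (20.6 to 26.8) in members and 267 CPM (264 to 270) in other cells of A0, and at 24.9 CPM (21.8 to 28.4) and 262 CPM (259 to 264) in A10. The histone demethylase Phf2 was at 1.52 CPM against 27.3 CPM in A0 and at 1.57 CPM against 30.9 CPM in A10. In A10, log2 ratios of these 10 genes lay between -3.63 (Phf2) and -1.67 (Hba-a1). With 10 CPM added, Hba-a1 in A10 (-0.569) was under 2-fold. Against the other cells of the same 4 clusters, Hba-a1 stood at -4.090 in A0. The other lowest genes lay between -0.232 (Phf2) and 0.414 (Elfn2) there. In A10 all 10 lay between -0.266 (Phf2) and 0.586 (Hba-a1).

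The promoters of Ssxb1 and Ssxb2 are shown because these X-linked copies were both among the 10 highest genes, and that of Pax6 because it holds a full site for the CREB and CREM factors, of which CREM acts in spermatids. Each sequence is the 250 bases before the annotated start in the RefSeq annotation of GRCm38.p6, 5′ to 3′ on the strand of the gene. Capitals mark the letters TGACG, the core of the CREB and CREM site, on either strand. The Pax6 gene lies on chromosome 2, Ssxb1 and Ssxb2 on chromosome X.
Pax6, chr2:105668646-105668895, plus strand: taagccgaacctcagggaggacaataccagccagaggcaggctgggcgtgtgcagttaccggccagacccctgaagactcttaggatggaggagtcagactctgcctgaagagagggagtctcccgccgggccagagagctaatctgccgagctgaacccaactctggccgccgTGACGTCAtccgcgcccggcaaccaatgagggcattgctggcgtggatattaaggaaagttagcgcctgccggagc
Ssxb1, chrX:8413055-8413304, plus strand: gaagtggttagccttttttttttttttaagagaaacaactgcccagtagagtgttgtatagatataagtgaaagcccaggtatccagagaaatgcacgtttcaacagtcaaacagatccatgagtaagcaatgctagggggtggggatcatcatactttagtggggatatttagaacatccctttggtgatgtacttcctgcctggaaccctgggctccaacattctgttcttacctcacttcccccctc
Ssxb2, chrX:8461727-8461976, minus strand: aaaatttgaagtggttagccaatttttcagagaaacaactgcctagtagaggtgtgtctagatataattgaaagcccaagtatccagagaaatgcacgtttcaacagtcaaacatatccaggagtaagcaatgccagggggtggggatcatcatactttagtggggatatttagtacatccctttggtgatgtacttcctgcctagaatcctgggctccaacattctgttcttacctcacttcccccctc
The Ssxb1 and Ssxb2 windows were identical at 229 bases (88.8% of the aligned columns), and neither held TGACG. In the Pax6 window the full site TGACGTCA was formed by 2 overlapping matches of TGACG, 1 on each strand. A second Pax6 start, at chr2:105682213-105682462, had no full site. The full site occurred in 508 of 32851 windows of the same length over all genes (1.55%), in 3.20% of windows of genes tested in A0 and in 3.23% of windows of genes higher in members of both libraries. For TGACG alone the shares were 17.8%, 27.9% and 26.6%. The letters GTTGCC, part of the X-box of RFX factors, read on either strand, occurred in 10.4%, 12.9% and 15.9%. Of the 421 genes higher in both libraries, 306 had a window. A match of letters is a description and no evidence of binding.

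Genes on the sex chromosomes were frequent among those higher in members than in all other cells. Of 167 X-linked genes with at least 10 CPM, 47 were 2-fold higher in members in each library (28.1%), beside the 6.97% and 7.41% of all genes, and 41 were higher in both. Of 9 Y-linked genes, 6 were higher in A0 and 7 in A10. Examples outside the SSX family were Akap14, an anchoring protein of protein kinase A (116 against 48.5 CPM in A0 and 115 against 50.5 CPM in A10), the histone variant H2afb3 (48.6 against 18.5 CPM and 48.4 against 18.9 CPM) and the Y-linked ubiquitin-activating enzyme Uba1y (14.5 against 4.57 CPM and 12.3 against 4.20 CPM). Of the same X-linked genes, 27 in A0 (16.2%) and 21 in A10 (12.6%) were 2-fold lower, beside 14.3% and 13.3% of all genes. Against the other cells of the same 4 clusters, 0 of 6375 genes in A0 and 0 of 6376 in A10 were 2-fold higher. None of these X-linked or Y-linked genes was thus 2-fold higher there. The share of all UMIs from chromosome X was 0.862% (0.856 to 0.868%) in members and 0.898% (0.897 to 0.900%) in other cells of A0. It was 0.865% (0.859 to 0.871%) and 0.879% (0.877 to 0.880%) in A10. The summed X share was therefore slightly lower in members, although this small difference changed sign when Mdm1 was left out of the choice (0.00127 points in A0 and 0.0173 points in A10), and in A10 also when Gm6588 was left out (0.0174 points). Chromosome Y gave 0.0364% of UMIs in members and 0.0166% in other cells of A0, and 0.0349% and 0.0143% in A10. Chromosome 16, which carries Prm1, Prm2, Prm3 and Tnp2, gave 3.60% in members and 6.44% in other cells of A0, and 3.82% and 6.94% in A10.

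Members were not uniform. Aurka and Ccna1 were highest in members of cluster 14 and Acrv1 in those of cluster 2. The kinase Aurka was at 266 CPM in A0 members of cluster 14, 109 CPM in cluster 16, 118 CPM in cluster 15 and 38.7 CPM in cluster 2. In A10 it was at 270, 100, 125 and 34.5 CPM. The meiotic cyclin Ccna1 was at 447, 270, 274 and 130 CPM in the same order in A0, and at 467, 270, 192 and 134 CPM in A10. Bub1 was at 149, 168, 151 and 117 CPM in A0, and at 131, 152, 165 and 112 CPM in A10. The acrosomal gene Acrv1 was at 174, 241, 254 and 347 CPM in A0, and at 162, 242, 228 and 335 CPM in A10. The X share was 0.678% in A0 members of cluster 14, 0.864% in cluster 16, 0.862% in cluster 15 and 1.08% in cluster 2, and in A10 it was 0.662%, 0.865%, 0.817% and 1.10%. Ssxb2 was at 154, 151 and 131 CPM in clusters 14, 16 and 15 of A0 but at 35.3 CPM in cluster 2, and Ces5a was at 26.2 CPM in cluster 14 and 42.1 CPM in cluster 2. From cluster 14 to 16 to 2, levels of Aurka and Ccna1 were successively lower and those of Acrv1 successively higher, in both libraries. Genes other than Ces5a could take part in the clustering, and Ces5a chose the members, so that these values are a description.

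**Figure D4:**
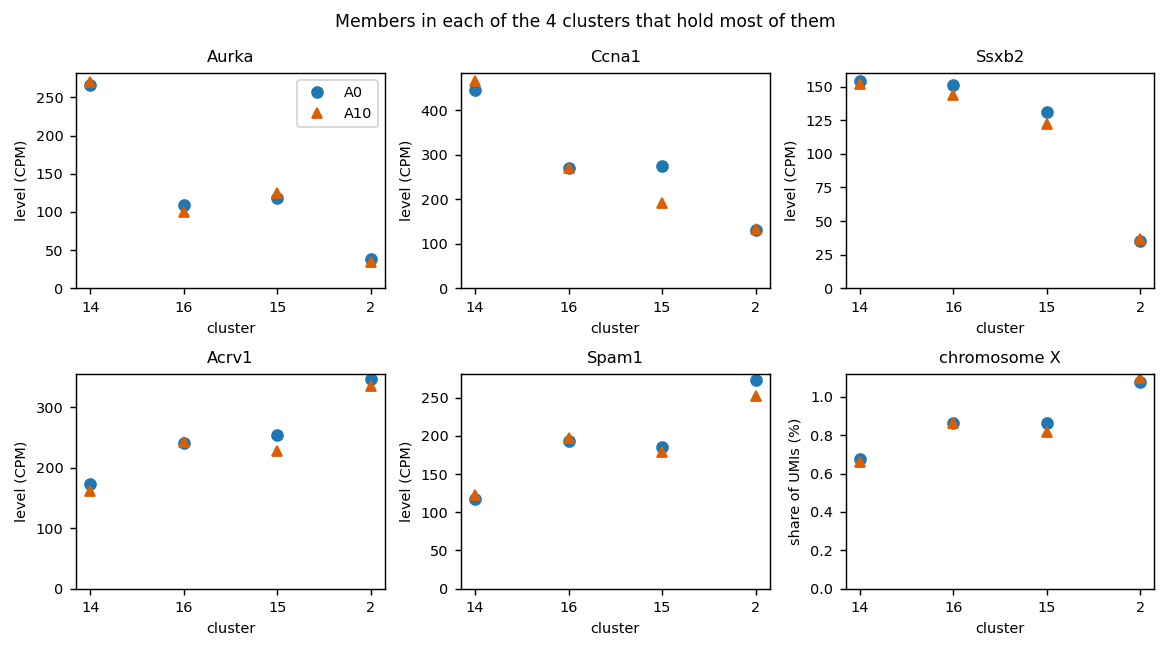
Level (CPM, y axis) of 5 genes and the share of UMIs from chromosome X (percent) in members of clusters 14, 16, 15 and 2 (x axis), with circles for A0 and triangles for A10. Aurka and Ccna1 are highest in cluster 14 (266 and 447 CPM in A0), while Acrv1, Spam1 and the X share are highest in cluster 2.

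Members of clusters 15 and 16 differed by 2-fold in 37 of 6216 genes in A0 and 107 in A10, few of them the same in both libraries. Cluster 15 held 60 members in A10 and 165 in A0, so genes near 10 CPM rest on few UMIs there. How much of these counts came from counting error was not tested. Of 6216 genes with at least 10 CPM in either cluster in both libraries, 1 was 2-fold higher in members of cluster 15 than in those of cluster 16 in both libraries, 5 were lower in both, and 3 went opposite ways. The 1 higher gene was Gm3417 on chromosome 17, a leading gene of cluster 15. It stood at 597 CPM in cluster 15 and 17.5 CPM in cluster 16 in A0, and at 683 and 21.3 CPM in A10. In cluster 15, 0 of the 165 A0 members and 0 of the 60 A10 members had no UMI of Gm3417, with medians of 8 and 9 UMIs. In cluster 16, 78.4% of 236 A0 members and 75.9% of 315 A10 members had none. As a gene that led the cluster, Gm3417 took part in forming it, so these values describe the split and test nothing. Gm10413 was the reverse, at 10.6 CPM in cluster 15 and 86.4 CPM in cluster 16 in A0 and at 16 and 87.7 CPM in A10. Atp6ap1l had opposite directions in the libraries, at 178 against 28.8 CPM in A0 and 33.1 against 208 CPM in A10. Gm10413 was named after its values were seen. Differences among the pooled outbred mice and differences among cell states cannot be told apart, because cells carry no label of their animal.

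The comparison of A10 with A0 within members addresses the effect of AOS alone on these cells, but it compares 2 libraries. For the 6 genes the values describe the choice, since members were taken by them with a separate cut in each library. Here and below, intervals beside a log2 ratio of A10 over A0 are those of the ratio without the added CPM. The log2 ratio of A10 over A0 was 0.12 (-0.09 to 0.34) for Ces5a, 0.10 (-0.05 to 0.24) for Cytl1, -0.02 (-0.27 to 0.22) for Sostdc1 and -0.07 (-0.16 to 0.01) for Mdm1. It was 0.27 (0.05 to 0.52) for Pax6 and -0.16 (-0.26 to -0.06) for Gm6588. Among other cells the ratio was 0.06 for Pax6 and -0.23 for Gm6588. At the A0 cut of 0.46427, 600 cells of A0 (6.71%, 6.20 to 7.25%) and 537 of A10 (5.55%, 5.10 to 6.02%) would have been members, at the lower depth of A10. After thinning each cell to 2500 UMIs, cells with UMIs of at least 2 of the 6 genes made up 5.06% (4.61 to 5.53%) of A0 and 4.64% (4.23 to 5.08%) of A10.

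Across all genes, 3 of 6381 (0.0470%) were 2-fold higher in A10 members and 5 (0.0784%) 2-fold lower, beside 3 (0.0446%) and 4 (0.0595%) of 6722 in the other cells. The total of 8 depended on the settings: it was 28 after thinning to 5000 UMIs, 23 among genes detected in 5% of cells, 15 with 300 cells per library, and 3 with 10 CPM added or a floor of 50 CPM. The median log2 ratio was -0.032 and the middle 90% of genes lay between -0.28 and 0.30. The 3 higher genes were Speer1, Atp6ap1l and Mical3. Speer1, of a spermatogenic glutamate-rich protein family with many copies, was at 26.1 CPM (23.0 to 29.5) in A0 members and 73.4 CPM (67.9 to 79.3) in A10 members, and its log2 ratio of 1.46 stood beside 1.79 in other cells. Atp6ap1l was at 78.9 CPM (73.4 to 84.6) and 184 CPM (175 to 193), with 1.21 beside 0.90. Mical3, an actin-oxidising enzyme, was at 7.73 CPM (6.09 to 9.67) and 18.6 CPM (15.9 to 21.7), with 1.17 (0.87 to 1.68) in members beside 0.09 in other cells. In members of cluster 16 it was at 5.17 and 18.1 CPM, with a log2 ratio, without added CPM, of 1.81 (1.11 to 2.57), but in those of cluster 15 at 6.67 and 2.28 CPM (17 and 2 UMIs), with -1.55 (-4.71 to 0.53).

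The 5 lower genes were Dapp1, 2210011C24Rik, Arg2, Ddx6 and Gm3417. Dapp1 was at 38.6 CPM (34.8 to 42.7) in A0 members and 14.3 CPM (11.9 to 17) in A10 members, with a log2 ratio of -1.38 beside -1.31 in other cells. The arginase Arg2 was at 38.6 CPM (34.8 to 42.7) and 16.4 CPM (13.8 to 19.3), with -1.19 beside -0.79. The RNA helicase Ddx6, which takes part in RNA storage, was at 25.6 CPM (22.6 to 29.0) and 11.8 CPM (9.64 to 14.3), with -1.06 beside -0.25. Gm3417 was at 205 CPM (196 to 214) and 99.5 CPM (93.0 to 106), with -1.04 beside -0.34. Inside clusters the values were different, here without added CPM. In members of cluster 16 the log2 ratio of Gm3417 was 0.29 (-0.17 to 0.74) and in those of cluster 15 it was 0.19 (0.06 to 0.33), with 165 A0 members and 60 A10 members in cluster 15. Atp6ap1l had a log2 ratio of 2.86 in cluster 16 and -2.43 in cluster 15, so its value over all members joined opposite differences. Ddx6 had -1.33 (-1.82 to -0.85) in cluster 16 and -3.92 (-9.26 to -1.37) in cluster 15, and Dapp1 had -0.74 (-1.15 to -0.34) and -5.57 (-10.88 to -3.07). In cluster 15 both genes stood at 1.14 CPM in A10, which is 1 UMI each. Arg2 had -1.19 (-1.62 to -0.76) in cluster 16 and -0.68 (-1.27 to -0.13) in cluster 15. Speer1, higher in A10 members, had 1.05 (0.76 to 1.36) and 3.08 (2.49 to 3.70). Of the gene lists, 0 genes passed 2-fold between A10 and A0 in members, and the median log2 ratio was -0.09 for the 12 round spermatid markers and 0.10 for the 13 elongating spermatid markers.

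**Figure D5:**
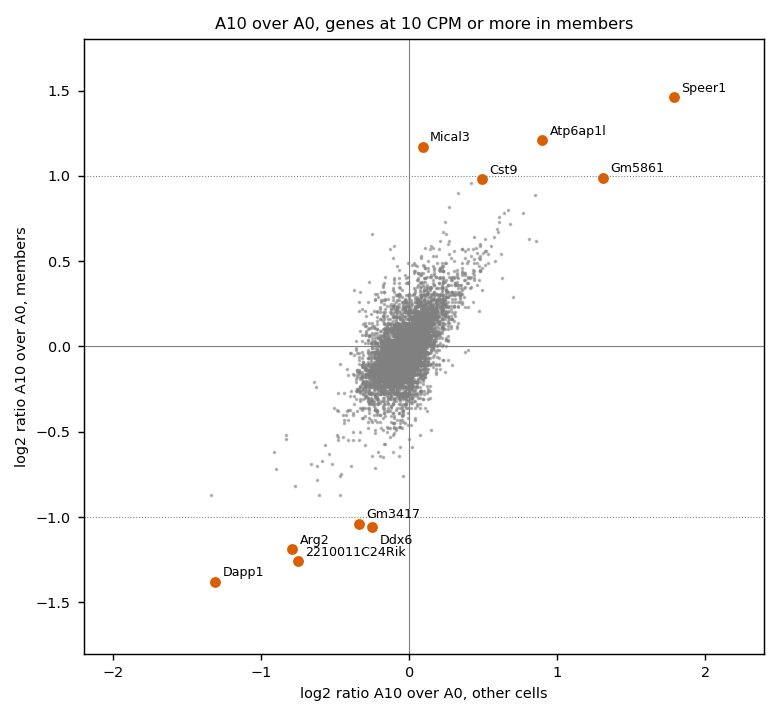
Log2 ratio of A10 over A0 in members (y axis) and in other cells (x axis) for each gene with at least 10 CPM in members; orange points are the 5 highest and 5 lowest genes in members and dotted lines mark 2-fold. Most genes lie near 0, Speer1 and Dapp1 lie far from 0 on both axes, and Mical3 (1.17 and 0.09) and Ddx6 (-1.06 and -0.25) lie farther from 0 in members than in other cells.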

How the data were processed

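Testis cells of 4 groups were measured by droplet single-cell RNA sequencing (10x Genomics). The submitters' processing notes name Cell Ranger 2.2.0 and mm10. Per the methods, cells in which fewer than 200 genes were found and genes present in fewer than 3 cells were dropped, and Seurat was used for normalization. The deposited values are on a natural log scale. Each is ln(1 + x), where x is the UMI count of the gene per 10000 UMIs in that cell. UMIs were recovered from them, since 100% of values above 0 came out whole within a tolerance of 0.001. The table held 18419 genes, of which 0 were mitochondrial. The B0 and BA10 libraries (busulfan alone and with AOS) entered no comparison of the report and were read only for the result set apart for a closer look.

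Members were the 600 cells per library with the highest mean deposited value over the 6 genes. The members and gene lists were chosen with earlier results of these data known. UMIs were summed over cells and expressed per 1000000 UMIs (CPM). Before log2 ratios were taken, 1 CPM was added to each side. A gene was counted at 2-fold or more among those with at least 10 CPM in either set, without the 6 genes for members over other cells. Intervals were exact: Poisson for sums, Clopper-Pearson for shares and conditional binomial for ratios, without the added CPM. Named genes were the 6 genes, the 10 highest and 10 lowest in A0 members, the 5 highest and 5 lowest for A10 over A0, and in each list those past 2-fold in both libraries and some of the 4 most abundant in A0 members. Aurka, Acrv1, Spef2, Adam7, Cst11, Rnase9, Akap14, H2afb3 and Uba1y were named outside this rule after their values were seen. Cells were clustered with scanpy 1.11.5 (2000 variable genes without the 6, 30 components, 15 neighbours, Leiden resolution 1). Doublets were kept and marked with Scrublet, as scanpy runs it, at an expected rate of 6%. The ratios were tested on simulated data. Coordinates came from GENCODE M21 (GRCm38), in which 17546 symbols matched, and promoters from RefSeq. The alternatives, other numbers of cells, scores, scalings, floors and clusterings, are given in the closing section. Leaving out replicates was not possible with 1 library per group.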

Additional observations from a re-analysis of the deposited data

Results flagged for a closer look

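The 6 genes were also read in the BA10 library (busulfan followed by AOS), which entered no comparison of the report. After every cell was thinned to 2500 UMIs, 114 of 3778 BA10 cells (3.02%, 2.50 to 3.61%) had UMIs of at least 2 of the 6 genes, against 25 of 4659 cells (0.537%, 0.348 to 0.791%) in the B0 library (busulfan alone). This signal in a library not otherwise used was above that of its control, and it compares 2 libraries with no replicate. Before thinning, the median per cell was 17989 UMIs in BA10 and 4214 in B0. The shares are of all cells of a library, and the libraries differed in makeup. Summed over all cells, 7 Leydig cell genes stood at 14526 CPM in B0 and 399 CPM in BA10, 9 Sertoli cell genes at 2279 and 230 CPM, and 12 round spermatid genes at 1167 and 3527 CPM. Fewer germ cells in B0 and lower levels of the 6 genes in its germ cells cannot be told apart in these shares.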

How the results depend on the processing

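No paired analysis was possible because each group was a single library, and for the same reason no replicate could be left out. Main counts of genes past 2-fold were 1489 in A0, 1441 in A10 and 8 for A10 over A0. With 10 CPM added they were 760, 705 and 3, with a floor of 50 CPM 605, 582 and 3, and against other cells of the same clusters 15 in A0 and 2 in A10. The count for A10 over A0 was 15 with 300 cells per library, 28 after thinning to 5000 UMIs and 23 among genes detected in 5% of cells. The X share of members minus other cells (points) was -0.00245 in A10 with 300 cells and -0.00530 with 1000, -0.0606 in A0 and -0.0226 in A10 when ranked by summed UMIs, -0.0468 in A0 without Ces5a, -0.0527 in A0 without Cytl1 and -0.00198 in A10 without Sostdc1. It was 0.00127 in A0 and 0.0173 in A10 without Mdm1, -0.0189 in A0 and 0.0174 in A10 without Gm6588, and -0.0256 and -0.00512 against the same clusters. The share of members in the clusters that hold most of them was 83.1% and 81.3% with 1000 cells (A0, A10), and in A10 88.3% with 300 cells and 89.2% without Scrublet calls. In A0 it was 83.5% without Gm6588, 91.2% at resolution 0.5 and 89.8% with the 6 genes kept, and at resolution 2 it was 82.7% in A0 and 88.3% in A10. The clusters were chosen to hold at least 80%, so these shares are high by choice. They numbered 5 with the 6 genes kept and 7 at resolution 2. Median UMIs of members minus other cells were -1247 in A10 when ranked by summed UMIs, and 738 in A0 and 510 in A10 against the same clusters. Also against the same clusters, list medians in A0 were 0.061 (early prophase), 0.022 (pachytene), -0.049 (round spermatid) and 0.090 (elongating), and in A10 -0.052 (late SPC), -0.006 (round spermatid) and 0.097 (elongating). Log2 ratios there were 0.414 for Elfn2, 0.131 for Hemgn and 0.015 for Rora in A0, and 0.041 for Elfn2, 0.157 for Anp32b, 0.172 for Alyref, 0.007 for Sap30, 0.459 for Hemgn, 0.147 for Ube2t and 0.586 for Hba-a1 in A10. With only members inside the same clusters the counts were 18 in A0 and 5 in A10, the X share -0.0239 in A0, and median UMIs 635 and 422. List medians there were 0.021 (early prophase), 0.001 (pachytene) and -0.020 (round spermatid) in A0, -0.031 (late SPC) in A10, and -0.066 in A0 and -0.071 in A10 (elongating, again below 0), and log2 ratios were 0.029 for Elfn2 in A0 and 0.036 for Hemgn, 0.045 for Ube2t and 0.673 for Hba-a1 in A10. The cause of these shifts was not tested. Leaving out cells with shared barcodes, and taking only members inside the same clusters, were chosen after seeing the data.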
